A study of Mus musculus with 15 samples.

Results

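Ribosome occupancy of 8 genes of the germline program was followed through 9 clones of mouse embryonic stem cells (mESCs): *Dazl*, *Ddx4*, *Mael*, *Stk31*, *Sycp3*, *Hormad1*, *Taf7l* and *Ctcfl*. These 8 genes were selected on measured values, since earlier results of these libraries had shown that their levels differ between clones of the *Rps27l-FLAG* line. Levels in single clones and differences between lines in total RPFs are therefore given as a description, and where a fit over all transcripts counts members past its threshold, nothing is read from that count. Each gene is represented by 1 of the 21727 transcripts listed in the deposited table, and all 8 were among the 10085 transcripts with enough counts to be tested. The cells belong to E14Tg2a.4, an mESC line, here grown on gelatin in serum with leukemia inhibitory factor, and lysed after a short cycloheximide treatment that holds ribosomes on the mRNA. In *Rps27-FLAG* cells (clones 2b12, 2c3 and 2c4) both alleles of *Rps27* carry a C-terminal 3xFLAG tag, and in *Rps27l-FLAG* cells (4a2, 4a3 and 4b7) both alleles of its paralog *Rps27l* carry it. The untagged WT controls are clones 5a1, 5a2 and 5a3. Ribosome-protected fragments (RPFs) are the stretches of mRNA that ribosomes shield from RNAse. Total RPFs were obtained from the ribosomes of every clone, pelleted by ultracentrifugation from RNAse-treated lysate. IP RPFs came from those of the pelleted ribosomes that were immunoprecipitated through the FLAG tag in the 6 tagged clones. This gave 15 libraries in 5 conditions of 3. Each clone was selected independently and is 1 replicate, its total and IP libraries are matched, and replicates 1, 2 and 3 of all lines form 3 sequencing batches, within each of which the barcoded fragments were also pooled for library preparation.

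Germline genes of this kind carry CpG-rich promoters that become methylated when the early embryo turns toward somatic fates, and DNA methylation holds them silent in somatic cells. In primordial germ cells the methylation is erased. In mESCs a Polycomb-type repressor complex that contains E2f6, Mga and Max binds many of these promoters, Mga with Max at the E-box CACGTG and E2f6 at a GC-rich core. The proteins act at different steps of germ cell life. Dazl is an RNA-binding protein that promotes translation of germ cell mRNAs, Ddx4 is the DEAD-box RNA helicase known as Vasa, Mael takes part in transposon silencing by piRNAs, and Stk31 is a germ cell protein with a Tudor domain. Sycp3 and Hormad1 belong to the axis of meiotic chromosomes. Taf7l is a germ cell paralog of the general transcription factor subunit Taf7, and Ctcfl, also called Boris, is the testis paralog of Ctcf.

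Promoter sequence is shown first. It was not among the measured values on which the genes were selected. The genes were, however, listed as methylation-silenced germline genes, a class with CpG-rich promoters. An excess of CpG or of the motifs below therefore describes that class and is no independent result. RefSeq promoters on GRCm38.p6 were found for 7 of the 8 members, and *Ctcfl* had no entry in the table used. The 250 bases before the transcript start held between 12 CpG in *Sycp3* and 31 in *Ddx4*, with a median of 19 over the 7 genes, against a median of 6 over all 32851 mouse promoters of the same length. The ratio of observed to expected CpG had a median of 0.75 in the members and 0.374 in all promoters. In 79 promoters of other germline genes the medians were 11 CpG and a ratio of 0.567, between those of the members and of all promoters. The sequence CACGTG, which reads the same on both strands, was present in 6 of 7 members (85.7%) and in 6.02% of all promoters. Of promoters with at least as many CpG as *Sycp3*, 9.76% held it. The core TCCCGC (or GCGGGA on the other strand) was present in 4 of 7 members (57.1%), in 16.9% of all promoters and in 39.7% of those with at least as many CpG as *Sycp3*, and 0 of the matches to the pair of motifs overlapped in these genes. *Ddx4*, *Mael*, *Sycp3* and *Hormad1* held both motifs, as 1.45% of all promoters and 3.83% of those with as many CpG did. Among 79 promoters of other germline genes, 19.0% held the E-box, 25.3% the core and 1.27% both. *Sycp3* and *Hormad1* had 2 E-boxes each, and *Dazl* was without a match to either motif in this window. A match describes letters in the sequence and was not tied to binding here. Windows of 5 genes are printed 5′ to 3′ in the direction of the gene, with CACGTG in capitals: *Dazl*, without a match, *Ddx4*, with the most CpG, and *Taf7l*, with the widest range among *Rps27l-FLAG* clones (at chr17:50293621-50293870, chr13:112652311-112652560 and chrX:134476491-134476740, all on the minus strand), and the pair with 2 E-boxes each (*Sycp3* at chr10:88459337-88459586 and *Hormad1* at chr3:95559427-95559676, both on the plus strand).
Dazl: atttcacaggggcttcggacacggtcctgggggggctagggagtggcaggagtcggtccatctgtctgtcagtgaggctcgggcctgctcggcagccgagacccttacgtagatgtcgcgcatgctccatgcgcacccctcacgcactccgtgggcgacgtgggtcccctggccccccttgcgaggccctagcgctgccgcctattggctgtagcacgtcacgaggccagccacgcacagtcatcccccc
Ddx4: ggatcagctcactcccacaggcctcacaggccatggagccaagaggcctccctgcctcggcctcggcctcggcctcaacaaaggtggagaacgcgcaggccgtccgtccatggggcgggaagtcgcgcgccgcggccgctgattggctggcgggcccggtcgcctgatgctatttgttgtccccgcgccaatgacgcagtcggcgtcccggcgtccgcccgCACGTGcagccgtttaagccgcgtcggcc
Taf7l: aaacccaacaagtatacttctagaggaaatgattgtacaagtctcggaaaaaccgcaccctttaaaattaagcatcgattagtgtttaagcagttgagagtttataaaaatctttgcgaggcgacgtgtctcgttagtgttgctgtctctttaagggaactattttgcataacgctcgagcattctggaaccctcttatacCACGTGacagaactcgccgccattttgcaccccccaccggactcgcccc
Sycp3: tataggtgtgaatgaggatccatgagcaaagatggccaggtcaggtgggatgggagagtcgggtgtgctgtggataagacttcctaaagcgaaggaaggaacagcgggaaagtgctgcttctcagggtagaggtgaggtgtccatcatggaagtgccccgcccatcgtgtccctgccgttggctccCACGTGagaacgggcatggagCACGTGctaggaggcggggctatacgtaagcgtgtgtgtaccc
Hormad1: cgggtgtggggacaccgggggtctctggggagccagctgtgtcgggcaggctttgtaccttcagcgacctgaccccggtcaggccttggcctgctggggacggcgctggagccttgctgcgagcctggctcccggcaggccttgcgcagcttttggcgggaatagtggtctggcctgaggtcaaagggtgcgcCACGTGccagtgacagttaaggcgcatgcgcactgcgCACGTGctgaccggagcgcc

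**Figure D1:**
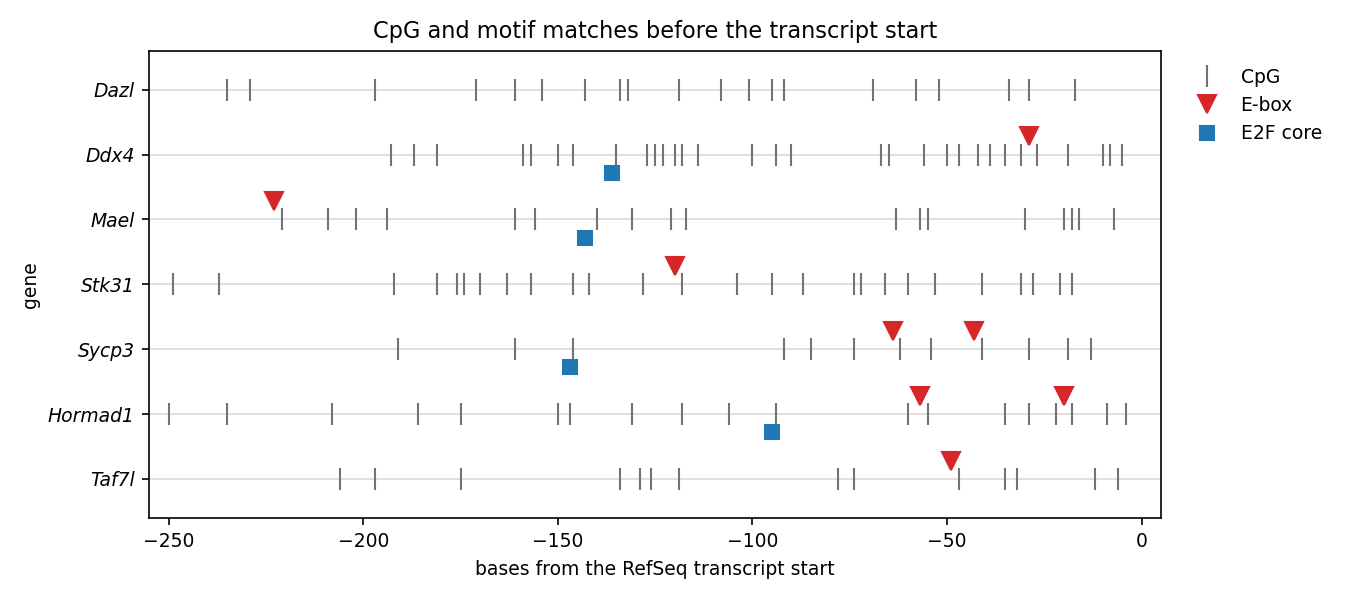
Positions of CpG (grey ticks), the E-box CACGTG (red triangles, above the line) and the E2F core (blue squares, under the line) in the 250 bases before the RefSeq transcript start of 7 germline genes, with bases from the start on the horizontal axis and 1 gene per row. E-boxes lie within 64 bases of the start in *Ddx4*, *Sycp3*, *Hormad1* and *Taf7l*, at -120 in *Stk31* and at -223 in *Mael*.

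Total counts ran from 3972152 to 8064166 per library (median 6673935). Levels are given as normalized CPM, that is counts relative to the library size after TMM scaling. Pluripotency markers identified the cells as mESCs in all clones: the 12 listed genes, *Pou5f1*, *Sox2* and *Nanog* among them, summed to between 4700 and 5100 normalized CPM in the 9 total libraries. Of 16 markers of differentiated lineages, 2 passed the filter on low counts (*Eomes* and *Nes*), and the summed level of all 16 ranged from 57.9 to 83.0 normalized CPM. The 2-cell-like markers (8 in the table, 0 past the filter) summed to 3.25 in 4a2, 4.44 in 4a3 and 18.0 in 4b7. In all, 4 total libraries stood apart from the rest in *Tet1*, the gene of a dioxygenase that oxidizes 5-methylcytosine. *Tet1* was at 2.43 normalized CPM in 2b12, 1.95 in 4a2, 3.08 in 5a1 and 2.10 in 4a3, and between 417 and 431 in the other 5 (2c3, 5a2, 2c4, 4b7 and 5a3). All clones of batch 1 were thus low, batch 3 had none, and in batch 2 the low clone was 4a3, so that *Tet1* and sequencing batch cannot be fully told apart. DNA methylation was not measured in these libraries, and the part that *Tet1* or the batch has in the levels below was not tested.

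Relative to CDS length the members ranged widely. In WT total RPFs the mean level was 163 normalized CPM per kb of counted CDS for *Sycp3* and 109 for *Hormad1*, higher than in 88.3% and 82.6% of the 10082 tested transcripts with a known CDS length. *Dazl* (51.3 CPM per kb), *Mael* (29.3), *Ddx4* (24.7) and *Stk31* (15.4) lay between the 37.5th and the 67.4th percentile, around the median transcript at 25.5 CPM per kb. *Taf7l* was at 7.74 CPM per kb, at the 21.5th percentile, and *Ctcfl* at 1.55, at the 1.34th percentile. Silenced is therefore a name that these data do not bear out for *Sycp3* and *Hormad1*. Nor do they for *Dazl*, *Mael* and *Ddx4*, which lay near or above the median transcript. The 8 are called germline genes here. Compared on the same scale, the broadly expressed paralogs were at 254 CPM per kb for *Taf7*, 108 for *Ctcf* and 432 for *Ddx3x*, a DEAD-box helicase related to Ddx4. RPFs of a culture reflect mRNA abundance and translation together, and a larger share of expressing cells cannot be told apart from more RNA per cell.

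*Dazl* (chr17:50279397-50293636 on GRCm38, 11 exons) had 66.5 normalized CPM in 2b12, 34.4 in 2c3 and 33.1 in 2c4 of *Rps27-FLAG*. In *Rps27l-FLAG* its total RPFs were at 90.9 in 4a2, 49.7 in 4a3 and 50.7 in 4b7. WT clones had 64.4 in 5a1, 31.0 in 5a2 and 33.0 in 5a3. In each line the clone of batch 1 was the highest, by 1.83-fold to 2.08-fold over the lowest, and within each batch the *Rps27l-FLAG* clone was above the other pair. Counting error is small beside these gaps, the exact Poisson 95% interval of 4a2 being 84.2 to 97.8 CPM from 698 counts. The means were 63.8 ± 23.5 (SD, n = 3) in *Rps27l-FLAG*, 44.7 ± 19.0 in *Rps27-FLAG* and 42.8 ± 18.7 in WT, so that the lines overlapped widely.

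*Ddx4* (chr13:112598333-112652301, 21 exons) likewise had its highest clone of each line in batch 1. Its total RPFs stood at 84.2 normalized CPM in 2b12, 39.2 in 2c3 and 43.3 in 2c4. They stood at 98.8 in 4a2, 70.4 in 4a3 and 62.3 in 4b7, and at 69.8, 45.4 and 36.4 in WT clones 5a1, 5a2 and 5a3. The lowest *Rps27l-FLAG* clone was above all *Rps27-FLAG* and WT clones of batches 2 and 3, and below those of batch 1.

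*Mael* (chr1:166201385-166238744, 12 exons) was highest in an *Rps27-FLAG* clone. It had 68.0 normalized CPM in 2b12, 33.5 in 2c3 and 27.3 in 2c4, against 61.3, 41.2 and 32.2 in 4a2, 4a3 and 4b7. WT clones were at 50.7, 34.3 and 24.3. In all 3 lines the clone of batch 1 was thus the highest and that of batch 3 the lowest. *Stk31* (chr6:49395604-49469501, 24 exons) ranged from 39.7 normalized CPM in 5a3 to 71.3 in 4a2. Its batch 1 clones had 60.9 (2b12), 71.3 (4a2) and 57.4 (5a1), and the other 6 clones lay between 39.7 and 52.2.

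*Sycp3* (chr10:88459569-88473235, 9 exons), a lateral element protein of the synaptonemal complex, had its peak in another clone. In *Rps27l-FLAG* it was at 134 normalized CPM in 4a2, 146 in 4a3 and 85.0 in 4b7, so that its highest and its lowest clone of all 9 belonged to the same line. In *Rps27-FLAG* it was at 126, 102 and 89.2, and in WT at 124, 106 and 114 in 5a1, 5a2 and 5a3. The 3 WT clones differed by 1.16-fold, the *Rps27l-FLAG* clones by 1.72-fold.

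*Hormad1* (chr3:95559677-95587671, 16 exons), which marks chromosome axes that have not synapsed, ran opposite to most of the rest. Its total RPFs were at 88.6 normalized CPM in 2b12, 149 in 2c3 and 125 in 2c4. In *Rps27l-FLAG* they were at 64.2 in 4a2, 93.5 in 4a3 and 98.2 in 4b7, and in WT at 76.7 in 5a1, 146 in 5a2 and 126 in 5a3. The 3 clones with the lowest *Hormad1* were those with the highest *Dazl*, and 4a2 had both extremes.

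Of the transcriptional members, *Taf7l* (chrX:134460118-134476490, 13 exons) showed the widest range in *Rps27l-FLAG*, and it shared 6 of 1386 stretches of 28 nt with 4933416C03Rik, where a fragment would match both. It was at 28.9 normalized CPM in 4a2, 14.7 in 4a3 and 8.69 in 4b7, a 3.32-fold range. The *Rps27-FLAG* clones had 24.0 in 2b12, 7.67 in 2c3 and 8.06 in 2c4, and the WT clones 17.1 in 5a1, 7.31 in 5a2 and 7.02 in 5a3. The 9 values thus fell apart into 4 between 14.7 and 28.9 and 5 between 7.02 and 8.69, with the exact Poisson intervals of 4a3 (12.2 to 17.6) and 4b7 (6.55 to 11.3) not overlapping. *Ctcfl* (chr2:173093609-173119525, 12 exons) had few counts, 14 to 60 per total library. Clone 2b12 had 7.66 normalized CPM (interval 5.85 to 9.87), and the other 8 lay at 3.64 or less with overlapping intervals, so that no order among them was detectable at this depth.

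**Figure D2:**
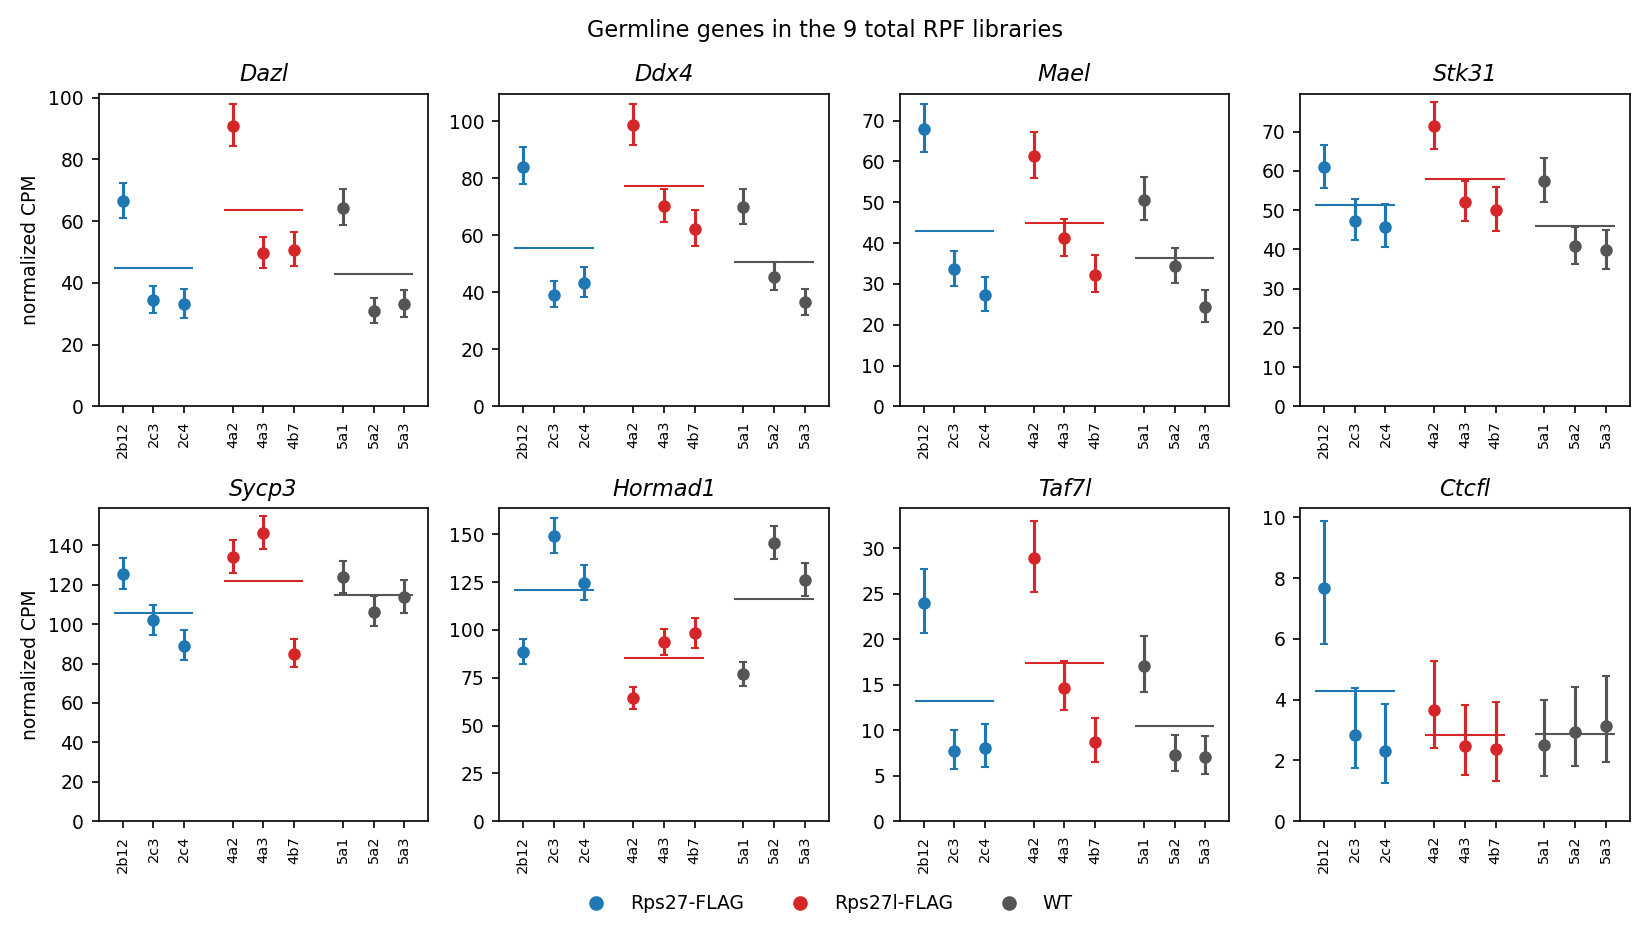
Normalized CPM (vertical axis, from 0) of the 8 germline genes in the total RPFs of 9 clones (horizontal axis), coloured by line, with exact Poisson 95% intervals as bars and the mean of each line as a horizontal line. In *Dazl*, *Ddx4*, *Mael*, *Stk31* and *Taf7l* the first clone of each line is the highest, in *Hormad1* it is the lowest, and *Sycp3* is highest in 4a3.

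Put together, 6 of the 8 genes were highest in 4a2 among the *Rps27l-FLAG* clones (*Ctcfl* only within counting error), against 31.5% of all transcripts. *Sycp3* was highest in 4a3 and *Hormad1* in 4b7. Among these clones 4b7 was the lowest for 6 members (*Ctcfl* again only within counting error) and for 3883 of the 10085 tested transcripts. Relative to the WT clone of the same batch, 4a2 was the highest of the 3 for 2 genes, *Hormad1* and *Ctcfl*. All 3 clones were below WT for *Hormad1*, 4a2 the least, and *Ctcfl* had few counts. This order was not counted over all transcripts, and nothing is read from it. The 8 genes did not move as 1 block. *Hormad1* was lower where most of the others were higher, and *Sycp3* and *Ctcfl* followed the others less closely. Over the 9 total libraries the Pearson correlation with *Dazl* was 0.955 for *Ddx4*, 0.55 for *Sycp3*, 0.412 for *Ctcfl* and -0.964 for *Hormad1*. In *Rps27-FLAG* clone 2b12 was highest for 7 and lowest for 1, and in WT clone 5a1 was highest for 6. The orders in these 2 lines were not counted over all transcripts, and nothing is read from them. All 3 clones of batch 1 were above all 3 of batch 3 for 6 genes (*Dazl*, *Ddx4*, *Mael*, *Stk31*, *Sycp3* and *Taf7l*), as they were for 18.3% of all tested transcripts, and below them for *Hormad1*, as for 17.8%. The 4 clones with little *Tet1* (2b12, 4a2, 4a3 and 5a1) were the 4 highest of 9 for *Ddx4*, *Mael*, *Stk31*, *Sycp3* and *Taf7l*, an order found in 11.7% of tested transcripts, and the 4 lowest for *Hormad1*, an order found in 11.3%. For *Dazl* clone 4b7 ranked between them (50.7 against 49.7 normalized CPM in 4a3). These orders are what the genes were selected for, and the shares of all transcripts, where given, are background.

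Batch 2 holds clones of both *Tet1* levels. There 4a3 was above 2c3 and 5a2 for 6 of 8 members, against 38.2% of all tested transcripts, and below both for *Hormad1* and *Ctcfl* (*Ctcfl* only within counting error), against 38.1%. In batch 3, where all clones had *Tet1*, 4b7 was above 2c4 and 5a3 for *Dazl*, *Ddx4*, *Mael*, *Stk31* and *Taf7l* (37.1% of all tested) and below them for *Sycp3* and *Hormad1* (35.9%). In batch 1, with *Tet1* low in all clones, 4a2 was above 2b12 and 5a1 for 5 members (34.5%) and below for *Hormad1* (33.8%). In the IP RPFs of the same 6 tagged clones, which the selection also covered, 2b12, 4a2 and 4a3 were the 3 highest for 7 members, all except *Hormad1* (15.8% of all tested), and the 3 lowest for 0 (15.0%). For *Ctcfl* the Poisson intervals of 4a2 and 2c3 overlapped in these IP libraries. The highest clone was the same in IP and total RPFs for 8 of 8 members in *Rps27-FLAG* and for 6 of 8 in *Rps27l-FLAG*. That match was not counted over all transcripts, and nothing is read from it. All of these orders describe genes picked for differences between these clones.

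**Figure D3:**
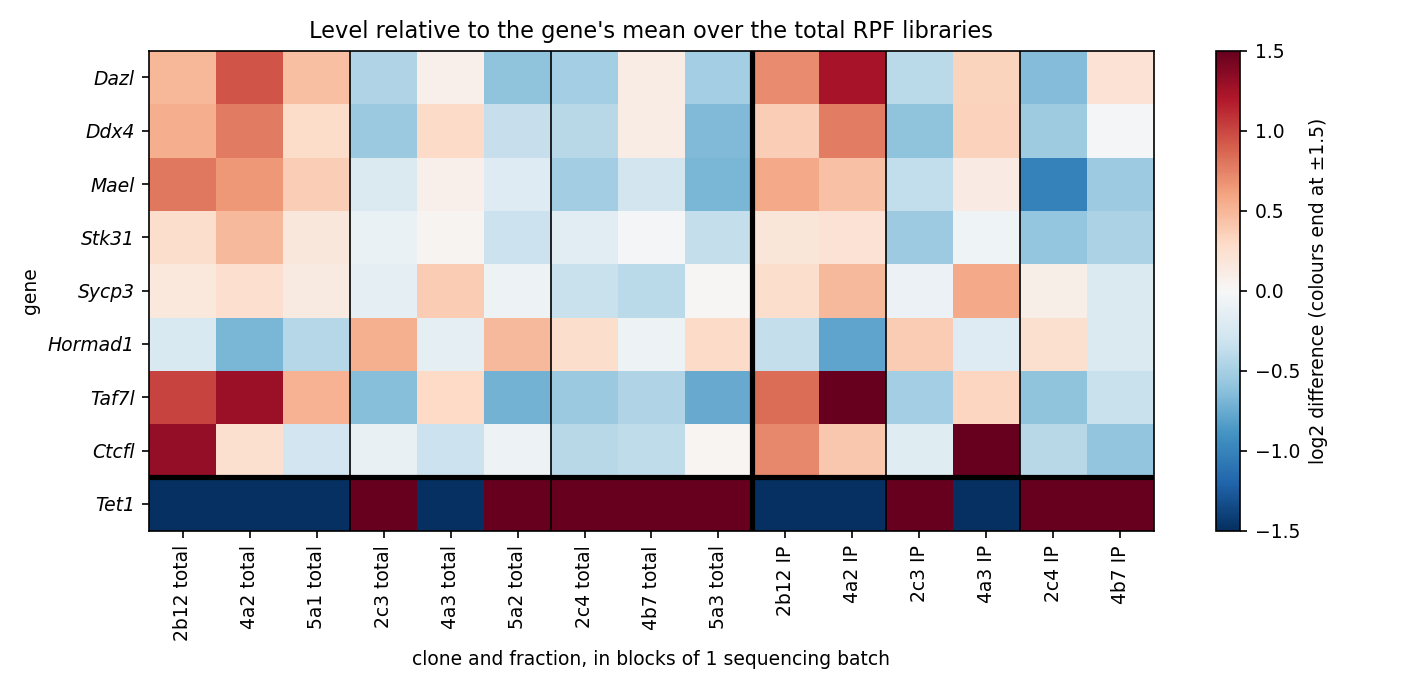
Log2 level of each germline gene and of *Tet1* (rows) in 9 total and 6 IP libraries (columns, grouped by sequencing batch, thick line between total and IP), relative to the mean of the gene over the total libraries, with colours that end at ±1.5. The columns of 2b12, 4a2 and 5a1 are red for *Dazl* to *Sycp3* and *Taf7l* and blue for *Hormad1* and *Tet1*, and 4a3 IP stands out in *Ctcfl*.

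The spread among *Rps27l-FLAG* clones is what the genes were chosen for and is given as a description. The log2 ratio of the highest to the lowest *Rps27l-FLAG* clone had a median of 0.72 over the 8 members and 0.26 over the 10085 tested transcripts. The medians of the members were 1.05 in *Rps27-FLAG* and 0.93 in WT, where those of all transcripts were 0.26 and 0.27. The broadly expressed paralogs were steady, with *Ctcf* between 235 and 247 normalized CPM and *Taf7* between 246 and 272 in the *Rps27l-FLAG* total libraries.

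Between lines, the total RPFs asked whether tagging either paralog shifted these genes. Relative to the WT clone of the same batch, *Rps27l-FLAG* was higher in 3 of 3 batches for *Dazl* (log2 ratios 0.50, 0.68 and 0.62), *Ddx4* (0.50, 0.63 and 0.77), *Taf7l* (0.76, 1.00 and 0.31), *Stk31* (0.31, 0.35 and 0.33) and *Mael* (0.28, 0.26 and 0.40), that is for 5 members, against 17.4% of all tested transcripts. *Hormad1* was lower in 3 of 3 (-0.26, -0.64 and -0.36), against 17.4% of all. *Sycp3* (0.12, 0.46 and -0.42) and *Ctcfl* (0.52, -0.24 and -0.39) went either way. For *Dazl* and *Hormad1* the *Rps27-FLAG* clones lay closer to WT, with log2 ratios from 0.00 to 0.15 and from -0.02 to 0.21. Yet *Rps27-FLAG* too was above WT in 3 of 3 batches for 3 members, and below in 3 of 3 for 0. The 3 were *Dazl*, *Stk31* (0.09, 0.21 and 0.20) and *Taf7l* (0.49, 0.07 and 0.20). For *Mael* 2b12 (0.42) exceeded 4a2 (0.28) in batch 1. The order in *Rps27-FLAG* was not counted over all transcripts, and nothing is read from it. In the edgeR fit without batch, 0 of 8 members passed an adjusted p of 0.05 for either tagged line against WT or for the tagged lines against each other, as did 0 of 10085 transcripts (0.0% in each). At an unadjusted p under 0.05 these fits held 294, 574 and 580 transcripts and 0 members. With the batch as a block, 0 members were past the threshold for *Rps27-FLAG* against WT (0.00992% of all transcripts), 4 for *Rps27l-FLAG* against WT (1.43%) and 3 for *Rps27l-FLAG* against *Rps27-FLAG* (1.36%). In this fit the log2 differences of *Rps27l-FLAG* from WT and from *Rps27-FLAG* were 0.59 and 0.53 for *Dazl*, 0.63 and 0.51 for *Ddx4*, 0.73 and 0.43 for *Taf7l* and -0.43 and -0.50 for *Hormad1*. As the members were chosen on these levels, nothing is read from these counts, and the comparisons share their libraries.

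The ratio of IP to total RPFs asked whether ribosomes with Rps27 or Rps27l carry more or less of these mRNAs than ribosomes in general. The selection covered the IP and the total levels, though not their ratio. WT cells had no IP library, so that what the immunoprecipitation recovers without a tag cannot be separated from these ratios. For *Dazl* the log2 ratio of IP to total was 0.28 in 4a2, 0.26 in 4a3 and 0.12 in 4b7, and 0.21, 0.05 and -0.14 in 2b12, 2c3 and 2c4. The ratios of *Rps27l-FLAG* were all above 0 and those of *Rps27-FLAG* lay on both sides, with overlap between the lines. For *Sycp3* they were above 0 in all 6 clones, at 0.23, 0.19 and 0.18 in *Rps27l-FLAG* and 0.11, 0.05 and 0.42 in *Rps27-FLAG*. For *Stk31* they were below 0 in all 6, at -0.27, -0.10 and -0.45 in *Rps27l-FLAG* and -0.08, -0.43 and -0.42 in *Rps27-FLAG*. *Hormad1* was also below 0 in every clone, between -0.14 and -0.02. *Mael* was below 0 in 5 of 6 clones, down to -0.49 in 2c4, and at 0.05 in 4a3. *Ddx4* lay between -0.17 and 0.06 and *Taf7l* between -0.18 and 0.33.

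By edgeR's quasi-likelihood test with Benjamini-Hochberg adjustment, 0 of 8 members differed between IP and total RPFs in *Rps27-FLAG*, where 5.68% of transcripts did, and 0 of 8 in *Rps27l-FLAG*, where 3.1% did. At an unadjusted p under 0.05 these fits held 2230 and 1752 of the 10085 transcripts and 0 members. These fits leave out that both libraries came from the same clone, and large differences between clones enter their error. The members were chosen for such differences, which makes a call on them less likely here. Nothing is therefore read from the 0 calls beside the shares of all transcripts. With the clone as a block, 4 of 8 members passed in *Rps27-FLAG*, as did 41.2% of transcripts, and 4 of 8 in *Rps27l-FLAG*, as did 31.0%, so that many transcripts of any kind pass this fit. *Sycp3* rose in the IP of both lines, by 0.17 (standard error 0.044, adjusted p = 0.000648, edgeR) in *Rps27-FLAG* and by 0.20 (standard error 0.042, adjusted p = 8.18e-05) in *Rps27l-FLAG*. *Stk31* fell in both, by 0.26 on the log2 scale in each, with adjusted p of 0.000699 and 0.00178. In *Rps27-FLAG* *Mael* fell by 0.25 (adjusted p = 0.00273) and *Hormad1* by 0.10 (adjusted p = 0.0445). In *Rps27l-FLAG* *Dazl* rose by 0.24 (standard error 0.057, adjusted p = 0.000569) and *Ctcfl* by 0.89 (standard error 0.27, adjusted p = 0.00765). Once a trend of the IP ratio with CDS length was removed as well, *Mael* in *Rps27-FLAG* (adjusted p = 0.0115) and *Dazl*, *Sycp3* and *Ctcfl* in *Rps27l-FLAG* (adjusted p of 0.00342, 0.00588 and 0.00563) still passed, while *Stk31*, with the longest CDS of the 8 at 3054 nt, was at -0.06 and -0.09 and passed in neither. Of 10085 transcripts, 3139 passed this fit in *Rps27-FLAG* and 2239 in *Rps27l-FLAG*, so that passing it is common. In *Rps27-FLAG* *Sycp3* was then at 0.09 (adjusted p = 0.136) and *Hormad1* at -0.10 (adjusted p = 0.0585), and neither passed. Single clones carried part of these calls: without 4a2 the change of *Dazl* gave an adjusted p of 0.0835, without 2c4 that of *Sycp3* in *Rps27-FLAG* gave 0.203, and without 2c3 that of *Stk31* in *Rps27-FLAG* gave 0.0576. *Hormad1* in *Rps27-FLAG* was lost without 2b12 or without 2c3, with adjusted p up to 0.313.

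**Figure D4:**
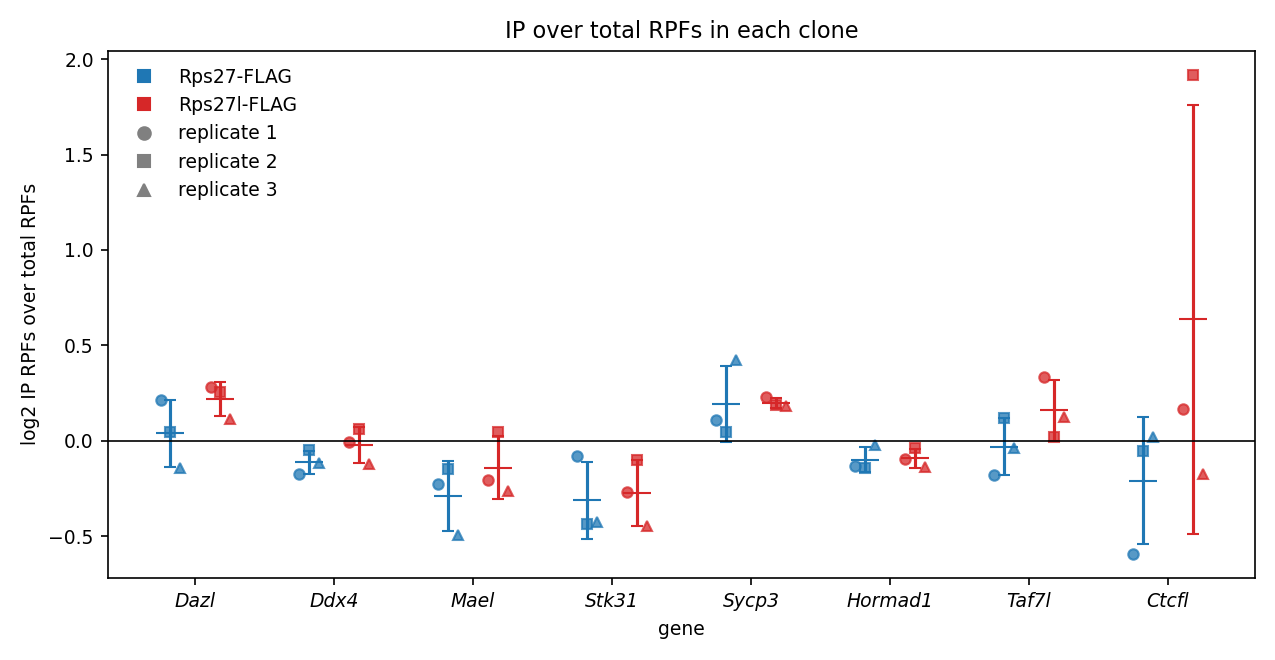
Log2 ratio of IP to total RPFs (vertical axis) of the 8 germline genes (horizontal axis) in each clone of *Rps27-FLAG* (blue) and *Rps27l-FLAG* (red), with the replicate given by the symbol and mean ± SD (n = 3 clones) as bars. *Sycp3* lies above 0 and *Stk31* and *Hormad1* below 0 in all 6 clones, and the ratio of 1.92 for *Ctcfl* in 4a3 lies far from the other 5 clones.

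When the IP effects of the lines were compared with each other, 1 of 8 members differed, against 0.575% of transcripts (*Tmod3*, which the study set aside, is counted here). This was *Ctcfl*, with a log2 difference of 1.26 (standard error 0.36, adjusted p = 0.0412, edgeR). It rests on 1 library: *Ctcfl* had 42 counts in the IP and 20 in the total of 4a3, a log2 ratio of 1.92, against 0.17 in 4a2 and -0.17 in 4b7, and without that clone the difference was 0.42 (adjusted p = 0.792). The blocked rise of *Ctcfl* in *Rps27l-FLAG* was likewise 0.05 (adjusted p = 0.942) without it. *Tet1* too had more counts in this IP library (43, or 9.67 normalized CPM) than in the total of the clone (17, or 2.10). The call on *Ctcfl* also was lost without 2b12 (adjusted p = 0.458) and without 2c4 (0.0792). For the other 7 members the difference between lines did not pass, at 0.32 (standard error 0.17) for *Taf7l*, 0.13 (0.089) for *Dazl*, 0.12 (0.083) for *Ddx4*, 0.11 (0.10) for *Mael*, 0.03 (0.063) for *Sycp3*, 0.02 (0.069) for *Hormad1* and 0.00 (0.098) for *Stk31*, which does not show that the ribosomes treat them alike.

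Other germline genes, from 3 lists set by function (piRNA pathway and nuage, meiosis, and remaining germline genes), were read beside the members. Of 54 tested, 28 (51.9%) were highest in 4a2 of the *Rps27l-FLAG* clones, as were 6 of 8 members and 31.5% of all transcripts. Their median range among these clones was 0.73 on the log2 scale, like the 0.72 of the members. The 4 clones with little *Tet1* were the 4 highest for 20 of the 54 (37.0%), among them 8 of 17 piRNA and nuage genes, 10 of 18 meiosis genes and 2 of 19 remaining germline genes, while 5 of the latter were lowest there. By the range among *Rps27l-FLAG* clones, the leading meiosis genes were *Sycp1*, *Ccdc36*, *Stra8*, *Zcwpw1* and *Stag3*. *Stra8*, the gatekeeper of meiotic entry, was at 107 normalized CPM in 4a2, 70.3 in 4a3 and 51.8 in 4b7, and at 102 and 87.0 in 2b12 and 5a1 against 25.5 to 40.5 in the other 4. The leading piRNA and nuage genes were *Piwil4*, *Fkbp6*, *Exd1*, *Tdrd1* and *Gtsf1*, none above 25.0 normalized CPM, with *Piwil4* at 6.51, 4.56 and 15.5 in 4a2, 4a3 and 4b7. Of the remaining germline genes *Dppa3*, *Brdt*, *Slc25a31*, *Mageb16* and *Rhox13* led. *Brdt*, a testis bromodomain protein, went with the members, from 17.7 in 4a2 to 5.69 in 4b7, and *Dppa3*, a marker of primordial germ cells, did not, at 2.73, 14.9 and 3.32 in 4a2, 4a3 and 4b7. In the IP contrasts without block 1 of the 54 passed, lower in the *Rps27-FLAG* IP.

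Known repressors of germline promoters varied less. The 22 repressors tested had a median range of 0.15 among *Rps27l-FLAG* clones, with *Yaf2* (0.86), *Trim28* (0.35), *Ring1* (0.32), *Smchd1* and *Pcgf6* (0.26 each) in the lead. A small range did not exclude the order of the members. The 4 clones with little *Tet1* were the 4 highest for 2 of the 22 (11.7% of all tested transcripts) and the 4 lowest for 4 (11.3%). Among DNA methylation genes *Tet1* ranged over 7.71, *Dnmt3b* over 0.94, *Dnmt3l* over 0.52, *Tet2* over 0.36 and *Dnmt3a* over 0.33, with *Dnmt3b* at 146, 200 and 104 normalized CPM in 4a2, 4a3 and 4b7. Of the 7 tested, 3 were lowest in the 4 clones with little *Tet1*, *Tet1* itself among them, and 0 were highest there. Primordial germ cell markers were on the whole not higher in 4a2: their sum was 747 normalized CPM there, the lowest of 9 clones, and 986 in 2c4, the highest, and *Dppa3*, *Prdm1*, *Tfap2c*, *Dnd1* and *Kit* led with ranges from 0.70 to 2.42. Markers of primed pluripotency summed to 240 in 4a2, 277 in 4a3 and 156 in 4b7, with *Sall2*, *Lef1*, *Pou3f1*, *Otx2* and *Zic2* ranging over 0.66 to 2.49. *Fgf4*, *Tfcp2l1*, *Tdh*, *Klf4* and *Utf1* led the mESC markers with 0.22 to 0.61, *Eomes* (1.25) and *Nes* (0.54) were the lineage genes tested, and *Boll*, *Taf7*, *Ddx3x* and *Ctcf* the paralogs, with 0.50 and less.

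**Figure D5:**
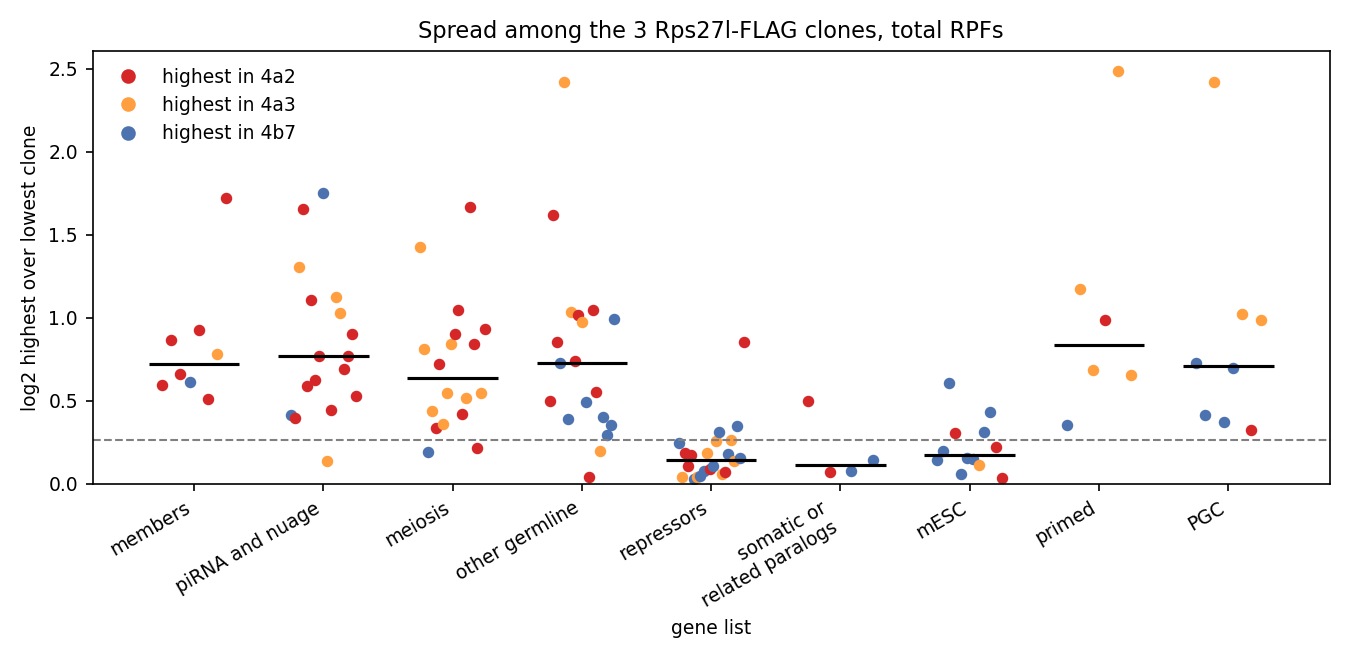
Log2 ratio of the highest to the lowest *Rps27l-FLAG* clone in total RPFs (vertical axis, from 0) for each tested gene of 9 lists (horizontal axis), coloured by the clone with the highest level, with the median of each list as a black line and that of all tested transcripts (0.26) dashed. The medians of the members (0.72) and of the germline lists lie above the dashed line, as do those of primed and primordial germ cell markers, and those of repressors (0.15), paralogs and mESC markers lie below it.

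The transcripts most like the members were found by the Pearson correlation of their log2 level over the 9 total libraries with the mean of the standardized members, as a description, since these libraries share batches and fall into separate groups by *Tet1*. The 10 with the highest correlation, between 0.970 and 0.992, were *Kalrn*, *Rras2*, *Tex19.1*, *Apeh*, *Faah*, *Hist1h2aa*, *Elovl4*, *Fam184a*, *Tex11* and *Adad2*. Of these, *Tex19.1* and *Tex11* were on the germline lists, and *Tex11*, a meiotic gene of the X chromosome, was at 127 normalized CPM in 4a2, 93.5 in 4a3 and 70.8 in 4b7. A correlation over 0.9 was reached by 153 transcripts, and the lowest was -0.984. The members themselves ranged from 0.977 for *Taf7l* and 0.974 for *Mael* over 0.722 for *Sycp3* and 0.679 for *Ctcfl* to -0.810 for *Hormad1*. Each member is part of the mean it is set against, which raises its own value, and *Hormad1* is in that mean too.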

How the data were processed

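Ribosome-protected fragments were profiled in 15 libraries of 9 mESC clones. Per the submitters' processing notes and methods, the authors trimmed adapters with cutadapt 2.4, collapsed duplicates by molecular identifiers with UMI-tools 1.0.1, discarded rRNA, tRNA and snRNA reads, aligned the rest with Bowtie2 2.3.4.3 to GRCm38 transcripts and counted uniquely aligned A sites in the CDS, leaving out 15 codons at its start and 5 at its end. The deposited values are these raw counts per transcript, without normalization. Unique alignment removes fragments that paralogs share. Of the table's per-sample columns 15 were used and 0 set aside.

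The 8 members and all gene lists were chosen with earlier results of these data known. Mitochondrially encoded transcripts (13) were left out, and tests covered the 10085 transcripts that passed CPM over 2 in 14 or more of the 15 libraries. TMM factors were computed for IP and total libraries separately, and 0.5 counts were added before log2. Tests were quasi-likelihood fits with edgeR 4.0.16 in R 4.3.3 with Benjamini-Hochberg adjustment over all tested transcripts and a threshold of 0.05, with a limit of 0.25 on the log2 difference between IP effects, whose fit holds the clone as a term. Standard errors are the log2 difference over the root of F. Poisson intervals (exact, 95%) cover counting error only. Coordinates and lengths were taken from GENCODE M21 (GRCm38), which held 21713 of the 21727 transcripts, and promoters from RefSeq on GRCm38.p6, the annotated start nearest the counted transcript. Windows of 28 nt were compared between all listed transcripts. Analyses were tested on simulated counts. Figures used Python 3.11.15 and matplotlib 3.10.9.

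Named were all members, up to 5 genes of each list with the widest range among *Rps27l-FLAG* clones, and the 10 transcripts most like the members. *Ctcf*, *Taf7* and *Ddx3x* were named among the paralogs and *Tet1* among the methylation genes by the same rule. IP and total residuals of the same clone, paired by that clone, correlated with r between 0.468 and 0.790. Batches were paired by the sequencing batch of the replicate number, with residual correlations between lines from -0.164 to 0.713. Alternatives were voom and limma 3.58.1, DESeq2 1.42.0, its size factors, TMM over all libraries, other filters, the replicate as a block, the CDS length trend removed by loess (span 0.5), each clone left out, and, added after seeing the data, the blocked IP fits with each clone left out.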

Additional observations from a re-analysis of the deposited data

Results flagged for a closer look

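*Ctcfl* was the member whose IP effect differed between the tagged lines, by 1.26 on the log2 scale in the test of the difference itself (adjusted p = 0.0412, edgeR), with 42 counts in the IP of clone 4a3 and 8 to 35 in the other 5 IP libraries. The same library held 43 counts of *Tet1* against 17 in the total of that clone, and the part of this in the value was not tested. Without clone 4a3 the difference was 0.42 (adjusted p = 0.792, edgeR).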

How the results depend on the processing

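With the replicate block, 4 members were past the threshold for *Rps27l-FLAG* against WT and 3 against *Rps27-FLAG* (144 and 137 transcripts in all, 0 without the block, 1 in each without 4a3). With the clone block 4 members passed in each IP contrast, among 4154 and 3128 transcripts in place of 573 and 313, and 1 and 3 with the CDS length trend also removed (3139 and 2239). Leaving out each clone gave 0 to 1 members in *Rps27-FLAG* (1817 transcripts without 2b12, 0 without 2c3 or 2c4) and 0 in *Rps27l-FLAG* (0 transcripts without 4a2 or 4a3, 319 without 4b7) without the block, and 2 to 3 and 3 to 4 members with it, a fit added after seeing the data. These fits with 0 calls held 793 to 1114 transcripts at an unadjusted p under 0.05. The 1 member called between the IP effects (*Ctcfl*) became 0 with voom and limma, with DESeq2 (which gave *Ctcfl* no adjusted p and called 9 transcripts in place of 58), with CPM over 2 in at least 3 libraries and without the replicate block (0 transcripts, 142 at an unadjusted p under 0.05). With the CDS length trend removed 29 transcripts were called, and leaving out each clone gave 0 to 1 members. Clone 4a2 was highest for 6 members under library totals, DESeq2's size factors and a pseudocount of 2 CPM, for 5 in the IP libraries, and for 2 (*Hormad1* and *Ctcfl*) once each clone was set against the WT clone of its batch. Under these alternatives no share over all transcripts was counted, and nothing is read from the counts. In all, 74 counts of members stayed within 1.5 times the main count under an alternative and 21 did not, and no called difference changed sign. Depth limits *Ctcfl* (8 to 60 counts) most.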
